A study of Caenorhabditis elegans with 24 samples.

Results

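Loss of *abl-1* was compared with wild type (wt) in *Caenorhabditis elegans* that were all fed quercetin. The comparison used 10 of the 24 libraries of the study: 5 of *abl-1* KO animals (strain NV50) and 5 of wt animals (strain NV48). Its members are the 12771 of 20191 genes in the table that reached 0.5 RPKM in 4 or more of the 24 libraries. RPKM divides the reads of a gene by the length of its exons and by the depth of the library. Both strains were isolated after XR1 was crossed with GRU102, and NV50 carries the *abl-1*(*ok171*) allele. The sample labels and the RNA-Seq methods differ in the name of the KO strain (NV50 in the labels, NV51 in the methods), and the groups here follow the labels. In the study's strain list NV51 also carries a transgene for human amyloid beta in neurons, while NV48 and NV50 are listed without it. The methods mark NV48 as nAD, the study's name for worms with that transgene, although the strain list calls NV48 wild type. Whether the animals carried the transgene was not tested. Whole animals were collected on day 3 after growth on HT115 bacteria with the empty vector L4440, and quercetin was given at 100 µM from the egg on. The same 2 strains without quercetin, which received the solvent (DMSO and Tween 80), gave 5 libraries each and are set beside the quercetin values. A further 4 libraries of wt animals on lutein entered the filter, the estimate of the spread between libraries and 1 count over all wt libraries, and are not compared here. Each genotype is 1 strain, so loss of *abl-1* and any other difference between the strains cannot be told apart. Since whole animals were measured, a lower value can mean fewer cells of a type or less RNA per cell, and these cannot be told apart either.

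ABL-1 is the worm member of the Abl family of non-receptor tyrosine kinases, which act on the actin cytoskeleton. In *C. elegans* it is known for restraining the engulfment of dying cells and for limiting germ cell death after radiation. Quercetin is a plant flavonol. Small foreign molecules are handled in worms, largely in the intestine, by cytochrome P450 enzymes that oxidise them and by UDP-glucuronosyltransferases and glutathione S-transferases that couple them to sugars or glutathione. The comparison shows how RNA levels differ between animals with and without ABL-1 when both receive the flavonol.

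The depth of the 10 quercetin libraries, estimated from the smallest steps in the RPKM values, was 29.96 to 45.14 M mapped reads. Sperm transcripts set some libraries apart. The summed level of the major sperm proteins, the most abundant proteins of nematode sperm, was 106, 442, 372, 18.1 and 272 RPKM in KO replicates 1 to 5. In wt replicates 1 to 5 it was 96.7, 140, 8.01, 337 and 13.4 RPKM. The 2 groups overlap, and each holds libraries with few and with many sperm transcripts. 5 libraries exceeded 200 RPKM: KO replicates 2, 3 and 5 and wt replicate 4 on quercetin, and untreated KO replicate 2. Results are therefore also given without these 5 libraries, a choice made after the data were seen. Markers of intestine, body wall muscle, pharynx, neurons, hypodermis and germ line were all present, and 0 of the 39 tested marker genes passed the main test. In an alternative fit with a term for replicate number, the hypodermis marker *col-19* passed (log2 difference 0.345, limma adjusted p = 0.000236, against 0.616 in the main fit). Of the 39, 32 lay above wt, beside 58.5% of all tested genes. Median log2 fold changes of the somatic marker sets ran from 0.06 (body wall muscle) to 0.17 (hypodermis). Germ-line markers leaned the other way, with 5 of 7 below wt (median -0.05). Whether the make-up of tissues differed was not tested. The 8 markers of the male soma were all below the filter and summed to 0.388 to 1.17 RPKM per library.

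The targeted gene was measured first. *abl-1* (WBcel235 chromosome X, 10605827 to 10624207) was at 6.92, 7.02, 7.25, 6.97 and 7.77 RPKM in wt replicates 1 to 5 on quercetin. The KO replicates held 2.02, 2.14, 1.85, 1.79 and 1.71 RPKM. Every KO library was below every wt library. *abl-1* RNA was thus at 26.5% of the wt level, 1.9 ± 0.175 against 7.19 ± 0.353 RPKM (SD, n = 5), and the log2 fold change was -1.68 ± 0.06 (SE, limma adjusted p = 1.22e-15). Without quercetin the 2 strains held 7.28 and 1.93 RPKM. The values cover the whole gene, so they do not show which exons gave the remaining reads.

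62 genes passed the test (limma adjusted p ≤ 0.05), which is 0.485% of the 12771 tested genes. 37 of them were higher in *abl-1* KO animals (0.29% of tested genes) and 25 were lower (0.196%). In 60 of the 62 genes the 5 KO and 5 wt libraries did not overlap, against 214 genes (1.68%) among all tested. The 2 exceptions were *C16C8.20* and *C30F2.3*, in which the lowest KO library lay below the highest wt library. The calls came from these same libraries, so the lack of overlap is no separate support for them. In size the changes ran from a log2 fold change of 0.12 to one of -5.30. 17 genes differed at least 2-fold (8 higher, 9 lower), 20 between 1.5- and 2-fold and 25 by less than 1.5-fold. The typical standard error of a log2 fold change was 0.08 over all tested genes. In simulated data with this spread the test found 90% of 2-fold and 74% of 1.5-fold changes and made 7 false calls. The simulated noise was independent between genes and libraries. It did not hold the sperm transcripts that vary together in some libraries, so these figures are not error rates of the 62 calls.

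The calls differ in how far they rest on single libraries. 39 of the 62 genes passed with each of the 10 quercetin libraries left out in turn. Of the 62, 45 remained called without wt replicate 1, 51 without replicate 2, 43 without replicate 3, 50 without replicate 4 and 41 without replicate 5. Leaving out KO replicates 1 to 5 in turn kept 47, 45, 46, 47 and 48 of them. The 23 genes that lost the call at least once had adjusted p values of 0.0116 to 0.0422 with all libraries, and up to 0.152 with 1 left out. Without the 5 libraries rich in sperm transcripts 23 genes passed, 8 higher and 15 lower, and all of them were among the 62. That fit holds 4 wt and 2 KO quercetin libraries, and its typical standard error was 0.11. The 39 genes that lost the call there had log2 fold changes of 0.69 to 1.32 times those with all libraries (median 0.93). 21 genes passed under all 20 alternatives tried, 8 higher and 13 lower, and all 62 kept their direction wherever they were tested. 4 called genes (*F59E12.15*, *F59E12.6*, *cyp-35A3* and *cyp-35A4*) reached 0.5 RPKM in wt libraries only and 2 (*C01G10.6* and *F09C6.1*) in KO libraries only, as did 15 and 28 of the tested genes. The last gene inside the threshold was *F43H9.4* (adjusted p = 0.0422), and the first outside was *npl-4.1* (0.0503).

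**Figure D1:**
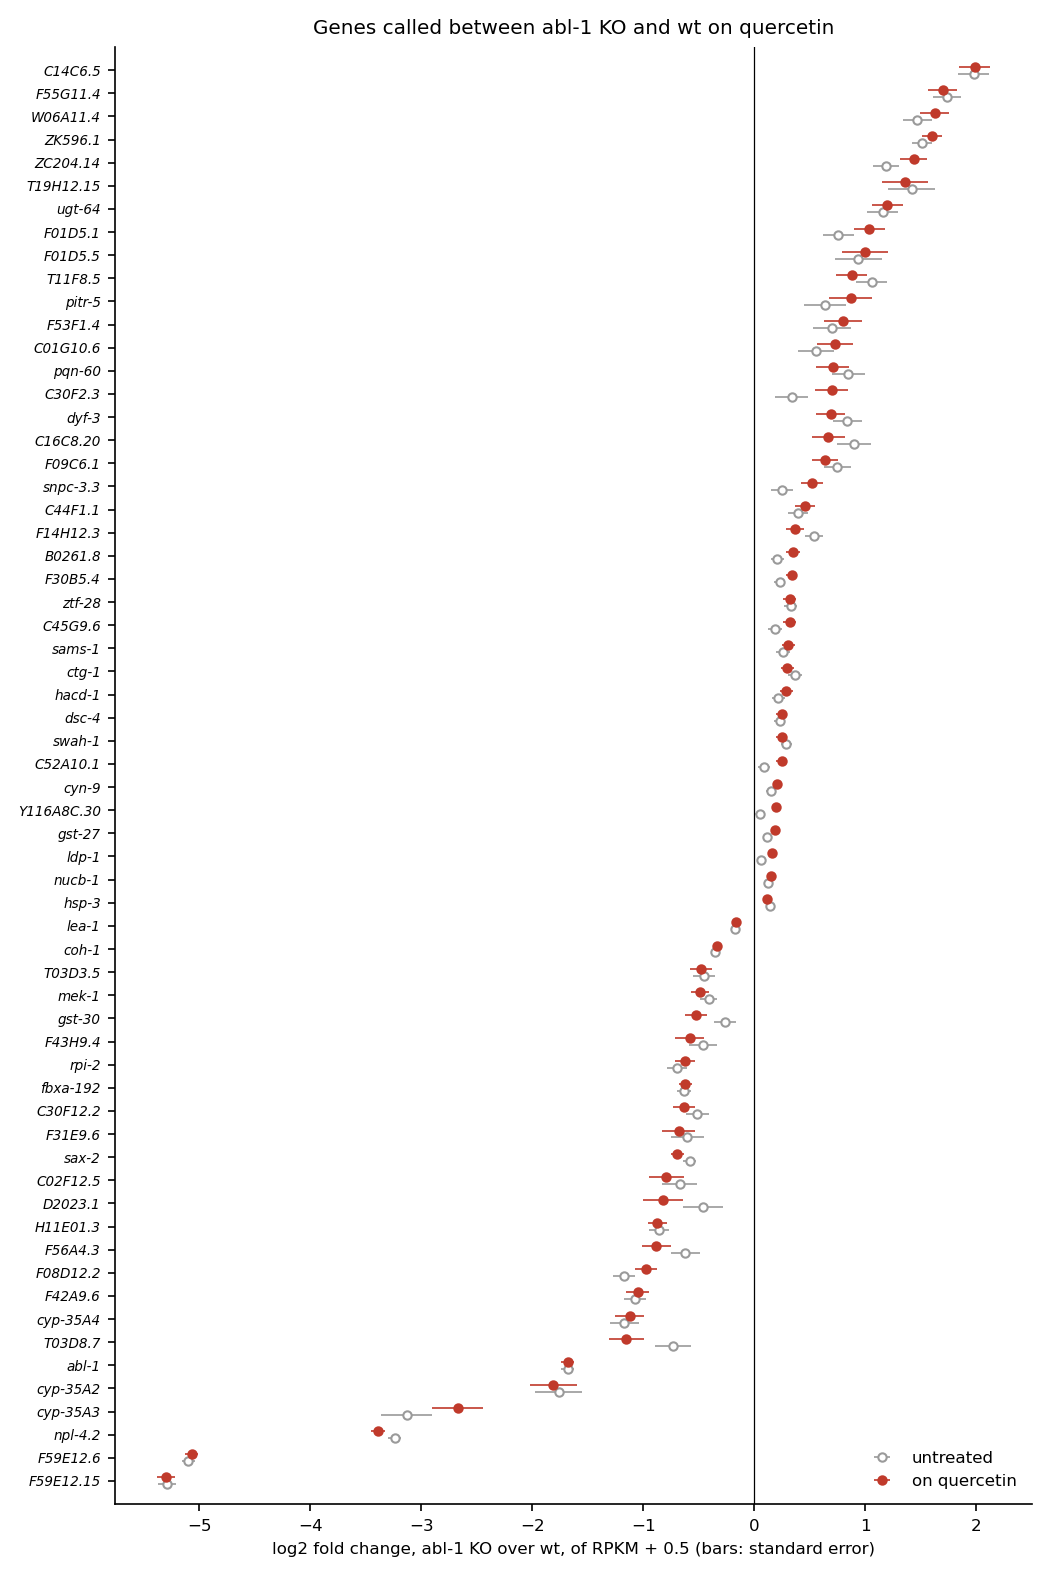
Log2 fold change (KO over wt, ± SE) of the 62 genes called on quercetin, in order of size, with the same genes in the untreated libraries beside them. The values run from -5.30 for *F59E12.15* to 1.99 for *C14C6.5*, and all 62 pairs of values lie on the same side of 0.

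The largest falls came from a single place on chromosome II. *npl-4.2*, *F59E12.15* and *F59E12.6* lie next to each other between 5622889 and 5630951. NPL-4.2 is a cofactor with which the CDC-48 ATPase extracts ubiquitin-tagged proteins from membranes and complexes. *npl-4.2* (5622889 to 5624959) was at 72.7, 80.3, 73.6, 76.2 and 77.4 RPKM in wt replicates 1 to 5 and at 7.19, 5.42, 7.1, 6.86 and 7.68 RPKM in the KO replicates. The KO libraries thus retained 9.01% of the wt level, with a log2 fold change of -3.39 ± 0.06 (SE, adjusted p = 3.03e-21). *F59E12.15* (5626315 to 5628376) was at 20.3, 21.4, 21.1, 21.7 and 19.1 RPKM in wt and at 0, 0.108, 0.0328, 0 and 0.0612 RPKM in KO animals. *F59E12.6* (5626717 to 5630951) was at 14.5, 16.39, 17.0, 17.4 and 16.9 RPKM in wt and was listed at 0 in KO replicates 1, 2, 4 and 5 and at 0.0126 RPKM in replicate 3. One read of *F59E12.6* is worth 0.00887 to 0.0105 RPKM at the estimated depths. The single value above 0 lies somewhat above that range, so it stands for very few reads, whose exact number the estimated depth does not give. Their fitted log2 fold changes, -5.30 ± 0.08 and -5.07 ± 0.06 (adjusted p = 2.99e-23 and 1.03e-25), depend on the pseudocount, and no ratio is given for them. The 2 genes overlap on the same strand, so reads from the shared stretch could be counted to either.

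*npl-4.1*, the closely related gene on the other side of the group (5631351 to 5633284), stood just outside the threshold. It was at 70.3, 78.7, 72.8, 76.5 and 77.4 RPKM in wt replicates and at 83.9, 94.0, 80.8, 93.8 and 81.0 RPKM in KO replicates. All 5 KO libraries were above all 5 wt libraries, with a log2 difference of 0.20 ± 0.05 (SE, adjusted p = 0.0503, two-sided exact permutation p = 0.00794, the smallest that 5 against 5 libraries allow). In the untreated libraries *npl-4.1* was called (log2 fold change 0.23, adjusted p = 0.0211). How reads that match both *npl-4* genes were counted is not given in the sources used here, so the split between them is uncertain. The drop ended sharply on both sides. Within 30 kb of *npl-4.2* the table has 19 genes, of which 14 were tested, and the 11 other than the 3 called genes had log2 differences of -0.12 to 0.20 with no call. The nearest of them on the left, *eif-3.L* (a translation initiation factor subunit) and *dhs-6* (a dehydrogenase), differed by -0.12 and -0.07. Of the 18 tested genes of the CDC-48 and ER-associated degradation list, *npl-4.2* alone was called. *cdc-48.1*, which encodes the ATPase, was at 391 RPKM in wt and 370.1 RPKM in KO animals (log2 difference -0.08).

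**Figure D2:**
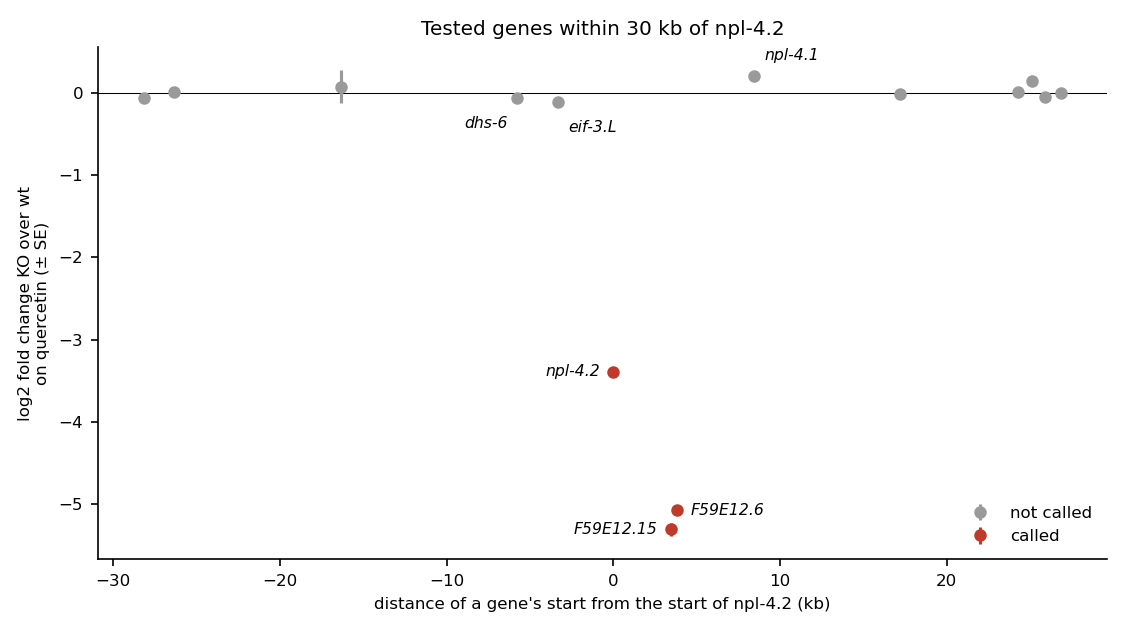
Log2 fold change (KO over wt on quercetin, ± SE) of the 14 tested genes whose start lies within 30 kb of the start of *npl-4.2*, against distance in kb. *npl-4.2*, *F59E12.15* and *F59E12.6* lie at -3.39, -5.30 and -5.07, and the other 11 genes between -0.12 and 0.20.

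Among detoxification genes, 3 of the 7 tested *cyp-35* cytochrome P450 genes were called lower, beside 0.196% of all tested genes. All 3 are of the *cyp-35A* branch, which is known for strong induction by foreign chemicals. *cyp-35A3* (chromosome V, 4022609 to 4024482) was at 3.64, 3.18, 2.51, 3.04 and 3.27 RPKM in wt replicates 1 to 5 and nearly silent in the KO replicates, at 0.0393, 0.0389, 0.0532, 0.114 and 0.0994 RPKM. The log2 fold change was -2.67 ± 0.23 (SE, adjusted p = 1.14e-07), on a scale whose pseudocount of 0.5 RPKM understates the change of so low a gene. *cyp-35A2* (chromosome V, 7362319 to 7364182), the most abundant of the 3, was at 35.04, 31.3, 26.1, 33.3 and 32.6 RPKM in wt and at 11.3, 9.05, 8.23, 8.98 and 6.34 RPKM in KO animals. It was 3.61-fold lower in KO libraries (log2 fold change -1.81 ± 0.21, adjusted p = 1.54e-05). *cyp-35A4* (chromosome V, 4031619 to 4033446) was low in wt, at 0.905, 0.613, 0.384, 0.677 and 0.679 RPKM, and at 0.02, 0.0396, 0.0181, 0 and 0.0506 RPKM in KO animals (-1.12 ± 0.13, adjusted p = 7.05e-06). For none of the 3 genes did a KO library reach the lowest wt library. *cyp-35A2* and *cyp-35A3* passed under every alternative, and *cyp-35A4* under all but the stricter filter, which it did not reach. *cyp-35A3* and *cyp-35A4* reached 0.5 RPKM in wt libraries only, so they could enter the test only through the strain in which they are high.

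*cyp-35C1* missed the threshold although its libraries did not overlap: wt replicates held 14.8, 12.153, 11.6, 16.18 and 13.9 RPKM and KO replicates 8.93, 7.83, 8.43, 9.63 and 5.76 RPKM (log2 difference -0.73 ± 0.17, adjusted p = 0.0577, exact permutation p = 0.00794). It passed under both other scalings (adjusted p = 0.0409 and 0.0367), in a fit of only the libraries compared (0.0491) and with the replicate block (0.00722), and stood at 0.962 without the sperm-rich libraries. The remaining tested genes of the subfamily, named here to complete it after their values were seen, were *cyp-35A5* (log2 difference -0.37, adjusted p = 0.607), *cyp-35B1* (-0.18, 0.762) and *cyp-35D1* (0.17, 0.829). *cyp-35A1*, *cyp-35B2* and *cyp-35B3* were below the filter. The median log2 fold change of the 7 tested genes was -0.73, beside 0.02 over all tested genes, and -0.47 without the sperm-rich libraries. Summed over the subfamily, wt libraries held 44.8 to 58.98 RPKM and KO libraries 14.9 to 24.6 RPKM. *cyp-35A3* and *cyp-35A4* lie 7.14 kb apart, *cyp-35A2* elsewhere on the same chromosome. The *cyp-35A* genes resemble each other in sequence, and how reads shared between them were counted is not known. The other 45 tested cytochrome P450 genes had 0 calls and a median of -0.02. *cyp-13A2* came nearest, at 1.08 RPKM in wt and 1.82 RPKM in KO animals (adjusted p = 0.0774), and passed in a fit of only the libraries compared (0.0384) and with the replicate block (0.0317).

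Of conjugating enzymes, 1 of 50 tested *ugt* genes and 2 of 40 tested glutathione S-transferase genes were called, beside 0.485% of all tested genes. *ugt-64* (chromosome V, 3503080 to 3506352), a UDP-glucuronosyltransferase, rose 2.33-fold. Its wt replicates were at 17.6, 20.6, 13.5, 13.6 and 14.2 RPKM and its KO replicates at 38.4, 43.8, 31.4, 34.1 and 37.4 RPKM, and the lowest KO library stood well above the highest wt library (log2 fold change 1.20 ± 0.14, adjusted p = 7.79e-06). 37 of the 50 *ugt* genes lay above wt and 13 below, with a median of 0.09. *ugt-22* was at 51.4 RPKM in wt and 40.6 RPKM in KO animals (adjusted p = 0.404), and *ugt-25*, chosen after its values were seen, at 7.27 and 8.73 RPKM (0.538). Among 40 tested glutathione S-transferases 20 lay above and 20 below wt, and 1 passed in each direction. *gst-27* (chromosome II, 15164890 to 15165731) rose from 50.6 ± 1.82 to 57.9 ± 1.41 RPKM (SD, n = 5, log2 fold change 0.19, limma adjusted p = 0.0235). That call was lost without any 1 of 7 libraries (adjusted p up to 0.0855) and under both other scalings (0.0559 and 0.0637). *gst-30* fell from 2.78 ± 0.261 to 1.79 ± 0.229 RPKM (SD, n = 5, -0.52, limma adjusted p = 0.00861) and passed with each library left out, but not without the sperm-rich libraries (adjusted p = 0.185) or in a fit of only the libraries compared (0.0541). The 17 tested antioxidant and SKN-1 genes had 0 calls.

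**Figure D3:**
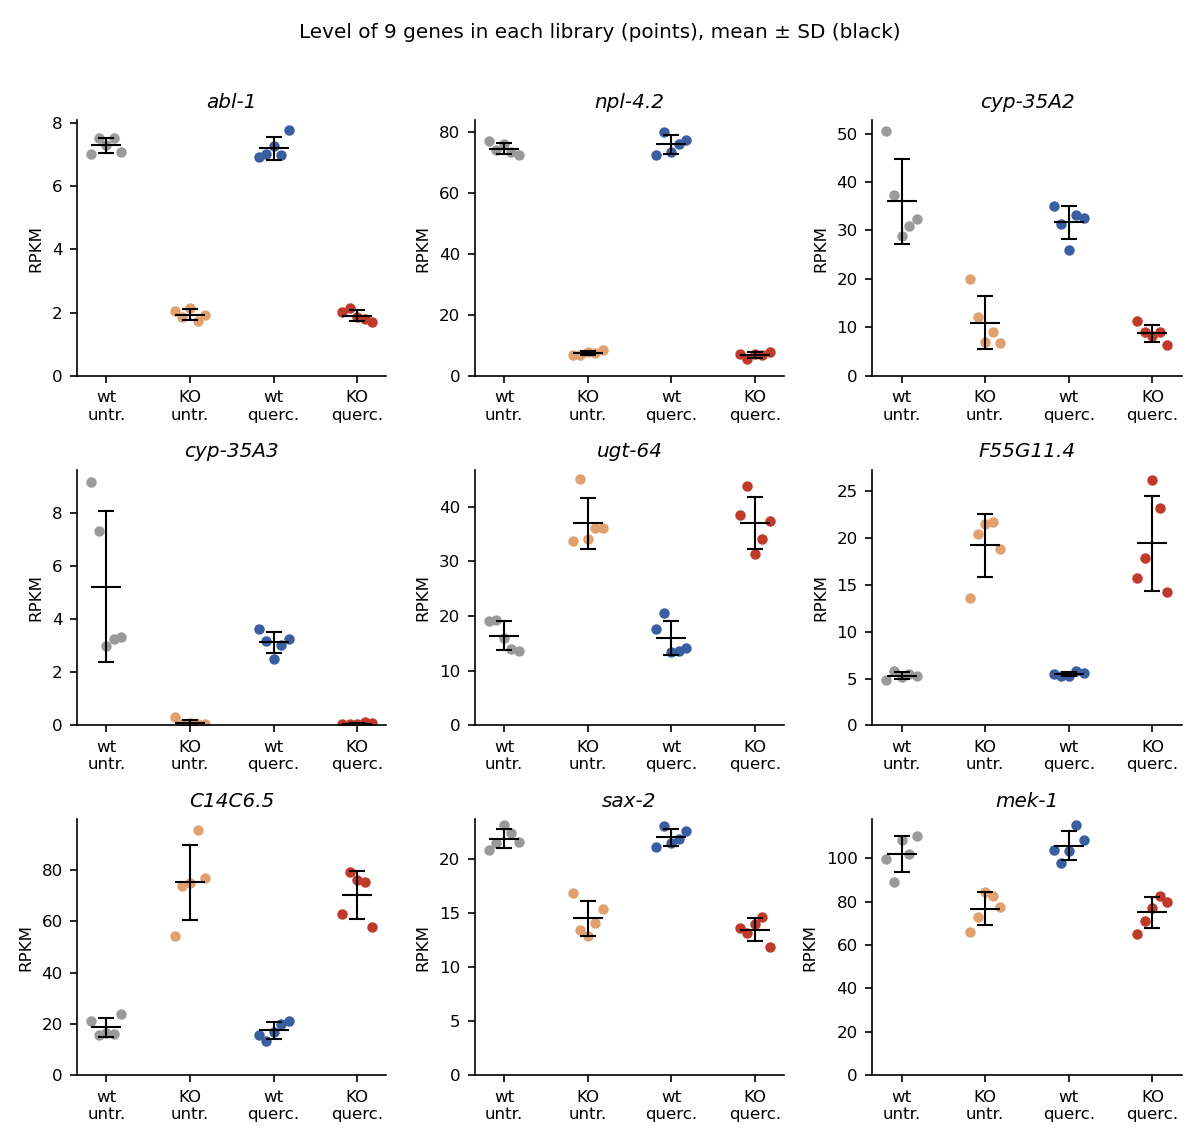
RPKM of 9 genes in each library of untreated wt, untreated KO, quercetin wt and quercetin KO animals (points, 5 per group in the order of replicates 1 to 5, with the mean ± SD in black). *abl-1* lies between 6.92 and 7.77 RPKM in wt and between 1.71 and 2.14 RPKM in KO libraries on quercetin, and *ugt-64* between 13.5 and 20.6 RPKM and between 31.4 and 43.8 RPKM.

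The other genes that rose strongly are mostly known by sequence name only, and no role is given for those. The largest rise on the log2 scale was that of *C14C6.5* (chromosome V, 536628 to 537418), which was at 15.8, 13.2, 16.9, 19.9 and 21.3 RPKM in wt replicates and at 62.7, 79.3, 76.1, 75.2 and 57.9 RPKM in KO replicates. It was 4.04-fold higher in KO animals (log2 fold change 1.99 ± 0.14, adjusted p = 3.77e-09). *F55G11.4* (chromosome IV, 12973624 to 12975603) encodes a CUB-like protein, of a family many of whose members respond to pathogens. Its wt libraries lay close together at 5.52, 5.27, 5.26, 5.85 and 5.62 RPKM, while the KO libraries were higher and more spread, at 15.7, 17.9, 26.2, 23.2 and 14.3 RPKM (3.54-fold, 1.70 ± 0.13, adjusted p = 1.18e-08). It was the only called gene among the 10 tested CUB-like and *dod* genes, of which 4 lay above and 6 below wt. *ZK596.1* rose 3.22-fold, with wt replicates at 5.84, 6.54, 5.67, 5.93 and 5.68 RPKM and KO replicates at 17.2, 16.3, 20.5, 20.6 and 21.0 RPKM (adjusted p = 5.92e-11). *W06A11.4* rose 3.5-fold, from a range of 1.89 to 3.33 RPKM in wt libraries to one of 7.43 to 10.32 RPKM in KO libraries (adjusted p = 3.34e-08). *ZC204.14* rose 2.94-fold, from a range of 2.85 to 4.29 RPKM to one of 9.55 to 11.5 RPKM (adjusted p = 4.24e-08). In each of these 5 genes the lowest KO library was well above the highest wt library, and each passed under every alternative.

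Lower down, *T19H12.15* rose from 1.31 ± 0.4219 to 4.05 ± 0.699 RPKM (SD, n = 5, limma adjusted p = 0.000757). *F01D5.1* and *F01D5.5*, which lie 4.105 kb apart on chromosome II, rose 2.31- and 2.27-fold (adjusted p = 0.000101 and 0.026). *F01D5.1* passed under every alternative, while the call of *F01D5.5* was lost without any 1 of 8 libraries (adjusted p up to 0.094). *T11F8.5* rose from 2.6 to 5.16 RPKM (adjusted p = 0.000757) and lost the call only without the sperm-rich libraries (0.185), where its log2 fold change was 0.82 against 0.88 with all libraries. *F53F1.4*, at 37.1 to 53.7 RPKM in wt and 62.1 to 90.97 RPKM in KO libraries, was lost without any 1 of 6 libraries (adjusted p = 0.0333 with all, up to 0.107). *C01G10.6* and *F09C6.1* had 0.5 RPKM in fewer than 12 libraries. All of these were KO libraries, so the 2 genes could enter the test only through the strain in which they are high. Their KO libraries held 0.355 to 0.629 and 0.35 to 0.77 RPKM, and their wt libraries at most 0.167 and 0.207 RPKM, which is few reads in either strain. *C01G10.6* lost the call without each of the 10 libraries in turn (adjusted p up to 0.138). *F09C6.1* kept it there, but lost it in a fit of only the libraries compared (adjusted p = 0.0856) and without the sperm-rich libraries (0.185).

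Outside the chromosome II group and the P450s, the named genes that fell included *sax-2*, *mek-1*, *coh-1* and *lea-1*. *sax-2* (chromosome III, 5109701 to 5130676) encodes the worm homologue of Furry, which shapes sensory neurons. It was at 21.1, 23.0, 21.4, 21.8 and 22.6 RPKM in wt replicates and at 13.6, 13.1, 14.0, 14.6 and 11.81 RPKM in KO replicates, which is 61.1% of wt (log2 fold change -0.69 ± 0.06, adjusted p = 1.14e-07). Both groups were tight and far apart. *mek-1* (chromosome X, 7479248 to 7481005), a MAP kinase kinase of stress signalling, was at 97.7 to 115.4 RPKM in wt libraries and at 64.8, 71.04, 77.2, 82.7 and 79.7 RPKM in KO replicates 1 to 5 (71.02% of wt, -0.49 ± 0.08, adjusted p = 0.000757). It was the only call among 18 tested MAP kinase genes, and it was lost without the sperm-rich libraries (adjusted p = 0.116), at the same log2 fold change of -0.49. *coh-1* (chromosome X, 7465193 to 7475018), a cohesin subunit gene 4.23 kb from *mek-1*, was at 12.64 to 14.0 RPKM in wt libraries and at 9.96 to 11.24 RPKM in KO libraries (-0.33 ± 0.04, adjusted p = 0.000101) and passed under every alternative. *lea-1*, whose late embryogenesis abundant protein protects against drying, fell by a small and tight step, from 44.6 ± 1.234 to 39.7 ± 1.13 RPKM (SD, n = 5, -0.16, limma adjusted p = 0.00207), and was not called without the sperm-rich libraries (0.514).

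*fbxa-192*, an F-box gene, fell from a range of 16.8 to 19.6 RPKM in wt libraries to one of 10.28 to 13.0 RPKM in KO libraries (adjusted p = 5.55e-07). It was the only call among 204 tested *fbxa*, *fbxb* and *fbxc* genes, of which 63 lay above and 141 below wt (median -0.06). *rpi-2* fell from 14.6 to 9.33 RPKM (adjusted p = 0.000197). *F42A9.6* was at 53.4, 61.5, 51.5, 57.1 and 53.04 RPKM in wt replicates and at 27.01, 35.4, 24.0, 23.8 and 23.8 RPKM in KO replicates, so 4 KO libraries lay close together and replicate 2 above them (-1.05 ± 0.10, adjusted p = 2.39e-07). *F08D12.2* (2.08-fold) and *H11E01.3* (2.58-fold) fell to a similar degree and, with *fbxa-192*, *rpi-2* and *F42A9.6*, passed under every alternative. *T03D8.7* (2.51-fold) and *F56A4.3* (1.86-fold) were lost only without the sperm-rich libraries (adjusted p = 0.0683 and 0.116), where their log2 fold changes were -0.99 and -0.83 against -1.15 and -0.88 with all. *D2023.1*, *C02F12.5*, *F31E9.6*, *F43H9.4* and *T03D3.5* fell 1.43- to 2.01-fold and each lost the call without any 1 of 6 to 8 libraries.

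Several named genes rose by small amounts. *sams-1* (chromosome X, 11965962 to 11969893) encodes S-adenosylmethionine synthetase, which makes the methyl donor of the cell. It was at 90.4, 69.7, 78.6, 88.1 and 79.7 RPKM in wt replicates and at 96.0, 110.05, 99.8, 98.5 and 100.1 RPKM in KO replicates (log2 fold change 0.31 ± 0.06, adjusted p = 0.00872). The groups did not overlap, and the call held with each library left out. *hacd-1*, a hydroxyacyl-CoA dehydrogenase of fatty acid breakdown, rose from 58.9 ± 5.34 to 72.0 ± 3.78 RPKM (SD, n = 5, limma adjusted p = 0.0333). *dsc-4*, the large subunit of the protein that loads lipid onto lipoproteins, rose from 12.302 ± 0.811 to 14.7 ± 0.531 RPKM (SD, n = 5, limma adjusted p = 0.0116). *hsp-3*, an endoplasmic reticulum chaperone of the BiP family, was at 221 to 242 RPKM in wt and 244 to 258 RPKM in KO libraries, a log2 fold change of only 0.12 ± 0.02 (adjusted p = 0.0235). It was the only call among 17 tested genes of the endoplasmic reticulum unfolded protein response. *nucb-1* (nucleobindin, a calcium-binding protein of the secretory pathway), *cyn-9* (a cyclophilin), *ctg-1* (a CRAL-TRIO and GOLD domain protein) and *ztf-28* (a zinc finger gene) rose 1.11- to 1.25-fold. Of these genes *sams-1*, *ctg-1* and *ztf-28* kept the call with each library left out, but lost it in a fit of only the libraries compared (adjusted p = 0.125, 0.180 and 0.0741). Without the sperm-rich libraries all of these genes lost it, with adjusted p values from 0.0618 (*ctg-1*) to 0.659 (*hacd-1*). *dsc-4* lost it without wt replicate 5 (adjusted p = 0.0547), and *hacd-1*, *hsp-3*, *nucb-1* and *cyn-9* without any 1 of 7, 6, 8 and 6 libraries. *hsp-3*, *dsc-4* and *nucb-1* also lost it under both other scalings (adjusted p = 0.173 and 0.204, 0.06 and 0.0736, and 0.0935 and 0.105). *dyf-3*, which sensory neurons need to build cilia, rose from 1.5 to 2.71 RPKM (adjusted p = 0.00861), and was not called without the sperm-rich libraries (0.234).

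The remaining called genes were 14 that rose, by a log2 fold change of 0.16 to 0.87, and 1 that fell. *swah-1* (31.7 to 37.9 RPKM), *snpc-3.3* (4.41 to 6.54 RPKM), *C45G9.6* (7.88 to 9.95 RPKM), *F30B5.4* (26.7 to 33.9 RPKM) and *B0261.8* (14.0 to 17.9 RPKM) kept the call with each library left out. *pitr-5* (a phosphate transporter gene, 0.542 to 1.43 RPKM), *pqn-60* (a gene for a protein rich in glutamine and asparagine, 2.44 to 4.35 RPKM), *ldp-1* (141.98 to 158 RPKM), *Y116A8C.30* (33.2 to 38.1 RPKM), *C52A10.1* (5.88 to 7.07 RPKM), *F14H12.3* (6.23 to 8.21 RPKM) and *C44F1.1* (1.12 to 1.72 RPKM) lost it without any 1 of 4 to 9 libraries. *C16C8.20* (3.57 to 6.109 RPKM) and *C30F2.3* (0.47 to 1.1 RPKM), the 2 genes whose libraries overlap, lost it without any 1 of 8 libraries. Without the sperm-rich libraries all 14 lost it, among them *F30B5.4* (adjusted p = 0.169), *B0261.8* (0.245), *C45G9.6* (0.40039), *snpc-3.3* (0.530) and *swah-1* (0.623). *C30F12.2* fell from 22.5 to 14.6 RPKM (adjusted p = 0.000878) and narrowly lost the call in a fit of only the libraries compared (0.0501).

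Most of the 31 gene lists examined had no called member. 22 lists had 0 calls and 9 had 1 or more. Over all tested genes only 0.485% were called, so 0 calls in a short list says little about its members. The same share stands beside the counts of calls per list given above. In the lists closest to the known work of ABL-1, the 21 tested genes of cell corpse engulfment and the WAVE actin complex spanned only -0.07 to 0.24 in log2 fold change, and the 14 core apoptosis genes had a median of 0.00, both with 0 calls. *abi-1*, the Abl interactor, was at 143 RPKM in wt and 139.6 RPKM in KO animals. Amyloid precursor processing genes (8 tested, median 0.01, *apl-1* at 0.11 with adjusted p = 0.737), autophagy genes (27, -0.01), lysosome and HLH-30 genes (33, 0.04), DAF-16 targets (11, -0.09) and C-type lectins (86, 0.03) also had 0 calls. So did antimicrobial peptides, saposins and lysozymes, of which 50 of 64 lay above wt (median 0.09). *lys-7*, a lysozyme gene of that list, was at 47.1 RPKM in wt and 88.8 RPKM in KO animals, but its libraries spread too widely for a call (log2 difference 0.98 ± 0.42, adjusted p = 0.536).

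Some lists leaned to one side without a call. Of 17 tested cytosolic heat shock genes 14 lay below wt (median -0.14, and -0.04 without the sperm-rich libraries). *hsp-16.2* was at 1.96 RPKM in wt and 0.997 RPKM in KO animals (log2 difference -0.72, adjusted p = 0.459), and *hsp-16.41* at 2.48 and 1.21 RPKM (-0.78, 0.543). Of 35 DNA replication and mitosis genes 33 lay below wt with a median of -0.06, all 20 oocyte and eggshell genes lay below with a median of -0.04, and 72 of 80 ribosomal protein genes lay above with a median of 0.05. Over all tested genes 58.5% lay above wt. Sperm genes leaned furthest. All 28 tested major sperm protein genes were above wt, their median being 1.14, and 27 of 31 other sperm genes were so, their median being 0.63, with 0 calls in both lists. The medians were 0.12 and 0.01 without the 5 sperm-rich libraries, and 0.71 to 1.78 for the major sperm proteins with 1 library left out. The 117 tested cuticle collagens had a median of 0.14, which ran from -0.14 to 0.40 with 1 library left out.

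The study lists 171 genes as changed both by quercetin and by loss of *abl-1*. That list was chosen on libraries that include the wt quercetin group, so its direction here is not independent evidence. 106 of its genes were tested, 96 lay above wt and 10 below, and 1, *cyp-35A3*, was called. The median was 0.43, and 0.04 without the sperm-rich libraries.

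**Figure D4:**
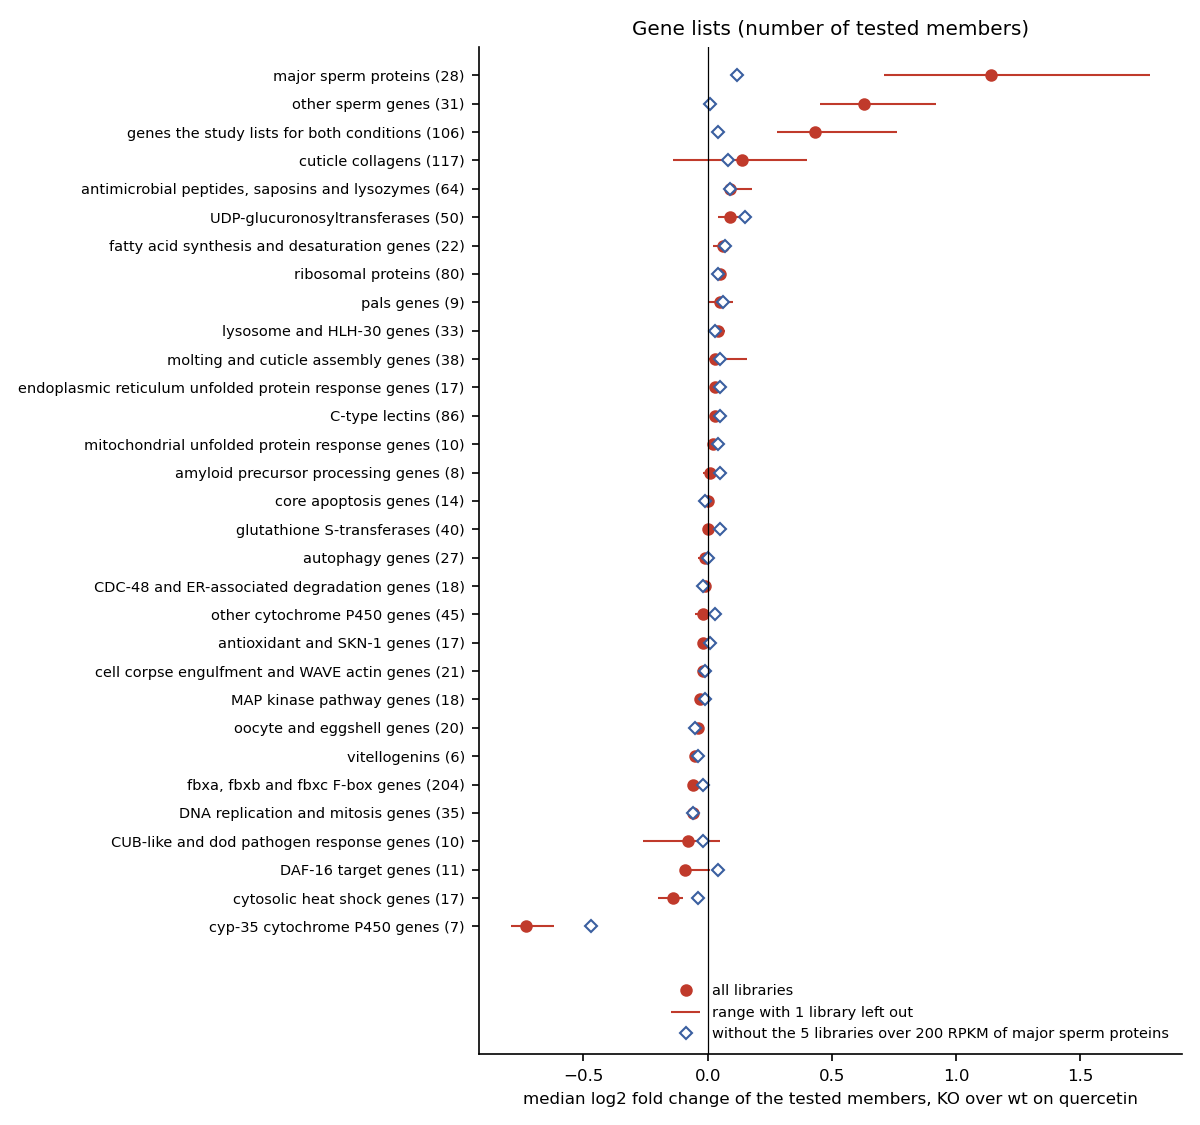
Median log2 fold change (KO over wt on quercetin) of the tested members of 31 gene lists (red points, number tested in parentheses), with its range when 1 library is left out (lines) and its value without the 5 libraries over 200 RPKM of major sperm proteins (open diamonds). The sperm lists move from 1.14 and 0.63 to 0.12 and 0.01, and the *cyp-35* genes stay below 0, at -0.73 and -0.47.

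The strain difference was also measured in the untreated libraries, which share none with the quercetin comparison. Both comparisons take the spread of each gene from the same fit of all 24 libraries, so their calls are not independent. In the untreated comparison 61 genes passed (0.478% of those tested), and 267 genes (2.09%) had libraries that did not overlap. All 62 genes called on quercetin had the same direction without it, as did 69.99% of all tested genes. 41 genes were called in both comparisons, which is 66.1% of the quercetin calls and 67.2% of the untreated calls, and 42 of the 62 (67.7%) had untreated libraries that did not overlap. With a replicate block over all 24 libraries 466 genes passed untreated, among them 53 of the 62. The labels do not state that same-numbered libraries are pairs, so that count rests on an assumption. In 36 of the 62 genes all 10 KO libraries lay apart from all 14 wt libraries, lutein included, as they did in 37 of all tested genes (0.29%).

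The sizes were close as well. *npl-4.2* was at 74.6 RPKM in untreated wt and 7.48 RPKM in untreated KO animals, and *C14C6.5* at 18.6 and 75.2 RPKM. *ugt-64* was at 16.401 and 37.03 RPKM, and *cyp-35A2* at 35.98 and 11.0 RPKM. *cyp-35A3* varied most among wt libraries, with 9.17, 7.33, 3.01, 3.25 and 3.35 RPKM in untreated replicates 1 to 5 and 0.31, 0.0455, 0.0792, 0.0395 and 0.0452 RPKM in untreated KO replicates. Its log2 fold change was -3.13 untreated and -2.67 on quercetin, and that difference of 0.46 ± 0.33 (SE) was the largest among the 62 genes. The median absolute difference among the 62 was 0.10.

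21 of the 62 genes were not called without quercetin, and 20 untreated calls were not called with it. This does not show that they depend on quercetin. The interaction of strain and quercetin, which tests the difference itself, gave 0 calls (0% of tested genes, smallest adjusted p = 1.0) in limma, with 203 genes at an unadjusted p of at most 0.05. Those 203 are 1.59% of tested genes, where about 639 genes would be expected with no difference at all. Among the 203 were 3 of the 62 (4.84%), with the smallest unadjusted p at 0.0326 (limma). Of the 21 genes, 18 reached an unadjusted p of 0.05 or less without quercetin, and of the 20 genes 14 did so with it. *npl-4.1* and *ugt-25* (adjusted p = 0.0269 untreated) are among the 20. The typical SE of an interaction was 0.12 on the log2 scale, so small differences were not detectable.

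**Figure D5:**
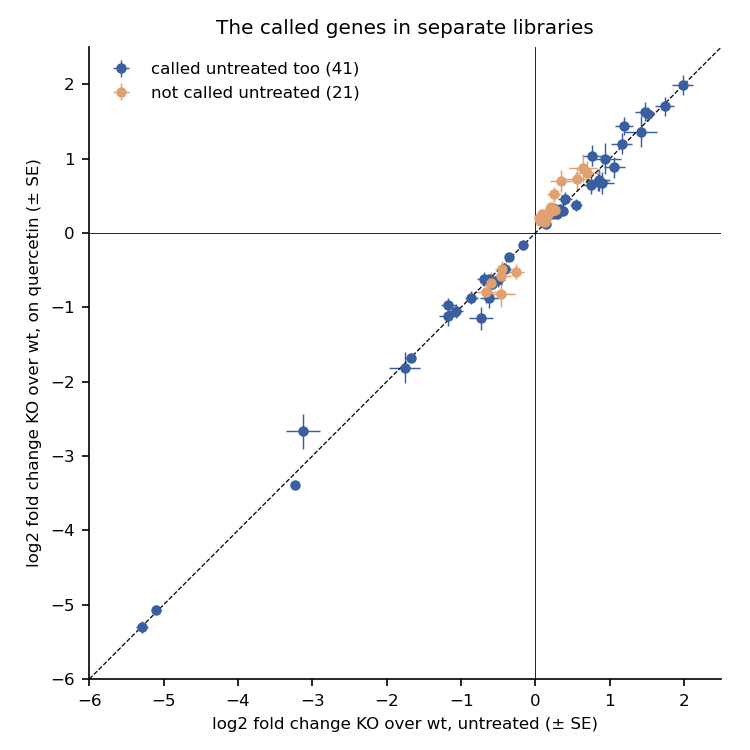
Log2 fold change (KO over wt, ± SE) on quercetin against the same value in untreated libraries for the 62 genes called on quercetin, 41 of them also called untreated (blue) and 21 not (orange). The points lie along the dashed line of equal values (Pearson r = 0.99 across these genes, which are not independent replicates, and 0.71 over all tested genes).

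By position, the called genes were spread over all chromosomes. Chromosome V held 22 of its 2381 tested genes (0.924%), 11 higher and 11 lower, chromosome X 10 of 1824 (0.548%), II 11 of 2229 (0.493%), IV 9 of 2126 (0.423%), I 5 of 2079 (0.241%) and III 4 of 2057 (0.194%). *pqn-60* was not positioned. Apart from the chromosome II group, some called genes lay within 100 kb of each other in the same direction: *cyp-35A3* and *cyp-35A4*, *F01D5.1* and *F01D5.5*, *coh-1* and *mek-1*, *ztf-28* and *ldp-1* (35.8 kb) and *cyn-9* and *C44F1.1* (60.7 kb). In 2 further pairs the directions were opposite, *C30F12.2* with *ctg-1* (35.3 kb, -0.63 and 0.30) and *C45G9.6* with *sax-2* (69.3 kb, 0.32 and -0.69). On the X chromosome the called gene nearest to *abl-1* was *nucb-1*, 0.408 Mb away. The median wt level of the called genes was 9.32 RPKM against 10.6 RPKM for all tested genes, 51.6% of them and 49.2% of tested genes lay under 10 RPKM, and 54.8% against 45.03% were known by a sequence name only.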

How the data were processed

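RNA of whole *C. elegans* was measured in 24 libraries of 5 groups, taken from the sample labels. The authors demultiplexed the stranded mRNA libraries with bcl2fastq (2.20.0.422), mapped reads to WBcel235 in CLC Genomics Workbench and deposited RPKM values per gene and library. Handling of strand and multi-mapped reads is not given in the sources used here. Totals of reads are not in the table, so depth (27.1 to 45.1 M over all libraries) was estimated from the smallest steps in the values, and no counting interval was derived.

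Genes with at least 0.5 RPKM in at least 4 libraries were kept. 158 genes met this in exactly 4 libraries (median level 0.333 RPKM) and 188 missed it with 3 (0.291 RPKM), and 0 genes passed through the KO quercetin libraries alone. The model, fitted in limma (3.58.1, R 4.3.3), took log2(RPKM + 0.5) of the 24 libraries with 1 mean per group, no covariate and a spread that follows expression (trend). A gene was called at a Benjamini-Hochberg adjusted p of at most 0.05 over all tested genes. Fold changes are on this log2 scale, and ratios are of mean RPKM. Single genes were also tested by two-sided exact permutation over 252 splits. The steps were tested on data simulated with independent noise. The study's methods call the libraries of a condition separate biological replicates, and the labels describe no cultures for them.

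The alternatives were 2 other pseudocounts (1 and 0.1), 2 scalings (median of ratios, trimmed mean), no filter, a stricter filter (1 RPKM in 10 libraries), only the libraries compared, a replicate block, Bonferroni adjustment, each library left out, and the sperm-rich libraries left out. Deviations of same-numbered untreated libraries had positive correlations (r = 0.44, 0.58, 0.46, 0.14 and 0.46). Only the replicate block treated same-numbered libraries as pairs, while the main fit and the other alternatives held no replicate term. The labels do not state such pairs, and differently numbered untreated libraries were not compared.

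The comparison and the lists were chosen with earlier results of these data known. Genes named are *abl-1*, *npl-4.1*, *npl-4.2* and neighbours, the 15 largest rises and falls without overlap and at 1 RPKM or more, up to 4 genes per list with the smallest p, and the other called genes, which were added after their values were seen. Positions came from annotations of WBcel235 (Ensembl for 18875 names, RefSeq for 1156, with 160 unmatched).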

Additional observations from a re-analysis of the deposited data

Results flagged for a closer look

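In 7 of the 200 groups of 5 libraries examined (100 genes in 2 groups), the highest or lowest library stood far from the other 4, where chance gives about 1 in 20. KO replicate 2 was the highest for *F42A9.6* (35.4 RPKM) and *sams-1* (110.05 RPKM) and the lowest for *eif-3.L* (94.2 RPKM). KO replicate 3 was the highest for *F59E12.6*, at 0.0126 RPKM, with the other 4 listed at 0. In wt animals replicate 1 was the lowest for *hacd-1* (49.5 RPKM) and *rpa-1*, a replication protein gene (159 RPKM), and replicate 2 the highest for *nlp-29*, an antimicrobial peptide gene of the skin (29.5 RPKM). Without KO replicate 2, and likewise without wt replicate 1, 45 of the 62 genes called on quercetin were still called.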

How the results depend on the processing

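Both scalings shifted the median of the log2 fold changes from 0.02 to 0.00 and gave 66 and 65 calls on quercetin (35 and 34 higher, 31 lower in both) against 62 (37 higher, 25 lower). A fit of only the libraries compared called 41 genes (0.321% of those tested) on quercetin and 39 (0.305%) untreated, and Bonferroni adjustment left 29 (0.227%) and 28 (0.219%). On quercetin, same-numbered libraries deviated together in some replicates only (r = 0.34, 0.50, -0.35, -0.61 and 0.08), with 4 of 10 libraries closest to their own number. Summed hypodermis markers were highest in replicate 1 of both groups (942 RPKM in wt, 1093 RPKM in KO) and next in replicate 2 (845 and 1014 RPKM). Whether the numbers mark a shared batch was not tested. The replicate block called 158 genes higher and 94 lower (1.97%), the 62 included. In the untreated comparison, where pairs were assumed from the correlations, the replicate block called 466 (3.65%). Without the 5 sperm-rich libraries, a choice made after seeing the data, 23 genes (0.18%) were called on quercetin. Leaving out 1 library gave 43 to 59 calls (0.337% to 0.462%) on quercetin, 41 to 66 (0.321% to 0.517%) untreated and 0 in the interaction, which had 0 calls under every alternative run. No filter gave 56 calls and added 3 genes below the filter (*acd-1*, *R08F11.7* and *ZC513.14*). The cause of these shifts was not tested. Of the values of single genes, 1687 kept their side of the threshold, 277 lost the call, 29 gained it and 0 reversed. Depth was only estimated, so genes near 0.5 RPKM rest on few reads.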
